A study of Saccharomyces cerevisiae with 262 samples.

Results

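This account sets haploid yeast segregants of mating type a against segregants of mating type alpha, as the transcripts of the pheromone receptors STE2 and STE3 assign them. The series measured RNA of 125 samples on spotted 2-colour arrays: haploid segregants of a cross between the vineyard isolate RM11-1a (RM) and the laboratory strain BY4716 (BY), with 6 RM replicates and 6 BY replicates. Each sample was hybridised against a reference pool of BY4716 RNA, and each segregant on 2 arrays with the dyes exchanged. The groups were chosen by the measured STE2 and STE3 values: 52 segregants were MATa, 53 were MATalpha, 5 fell in neither group and 3 were left out by name, which accounts for every segregant. The labels give no genotype, mating type, medium or culture for any segregant, and do not say which segregants come from the same meiosis. As background, RM11-1a is a MATa strain whose LEU2 and URA3 genes and HO gene are inactivated, and BY4716 is a MATalpha strain with LYS2 deleted. Every value below is a log2 ratio of the strain's own RNA over the BY4716 pool, the mean of its 2 arrays, so that 0 is the level of the pool and a difference of 1 is a 2-fold ratio. That direction and base are likely rather than stated: they were read from the range of the values and from LEU2 and the mating genes, whose direction is therefore not independent evidence.

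Haploid yeast mates as one of 2 cell types, set by the allele at the MAT locus on chromosome III. In alpha cells the MATALPHA1 protein activates alpha-specific genes and the MATALPHA2 protein, with MCM1, represses a-specific genes. In a cells neither alpha protein is made, and the a-specific genes are transcribed without need of the a1 protein. Each type secretes its own pheromone and carries the receptor for the pheromone of the other. Both types share the signalling pathway behind the receptors. Silent copies of the MAT genes lie at HML and HMR near the ends of the same chromosome.

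The receptors chose the groups, so their values are given as a description. STE2, the receptor for alpha-factor, had a lowest, median and highest value of 2.68, 4.73 and 6.16 in MATa segregants, against −0.64, −0.22 and 2.08 in MATalpha segregants. STE3, the receptor for a-factor, had −7.56, −5.44 and −2.63 in MATa segregants, against −1.58, −0.08 and 1.07 in MATalpha segregants. MATa segregants had STE2 above 2.3 and STE3 below −2.5, and MATalpha segregants lay on the other side of both thresholds. Nearest the thresholds inside the groups lay the MATa strains 21-3-d for STE2 (2.68) and 11-3-b for STE3 (−2.63). In MATalpha they were 21-5-c for STE2 (2.08) and 4-1-c for STE3 (−1.58). The 2 MATa values are means of arrays far apart, −0.25 and 5.61 in 21-3-d and 0.78 and −6.03 in 11-3-b. The arrays of 21-5-c read 2.20 and 1.95, and those of 4-1-c −1.38 and −1.78. Just outside lay 13-1-a, with STE2 at 2.09 beside a STE3 of −5.80, and 13-5-c, with STE3 at −1.99 beside a STE2 of 4.51.

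**Figure D1:**
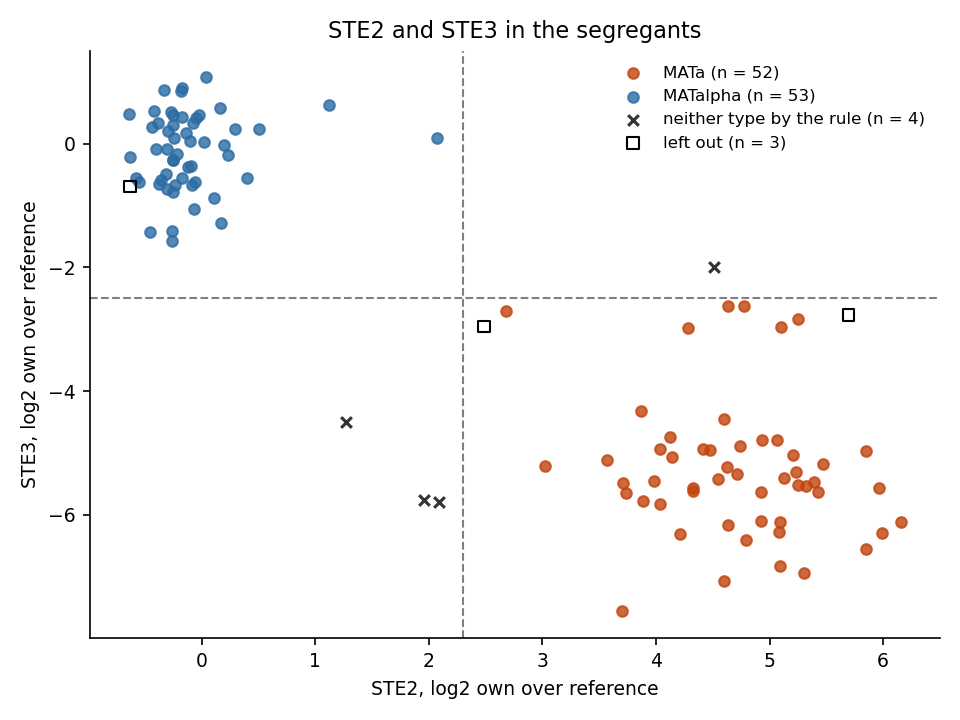
STE2 (x axis) against STE3 (y axis), both as log2 own over reference, with 1 point per segregant and dashed lines at 2.3 and −2.5. The 52 MATa strains lie at the lower right and the 53 MATalpha strains at the upper left, with 4 strains outside both quadrants and the 3 strains left out by name as open squares.

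5 segregants fell in neither group. In 7-5-d, 13-1-a and 17-1-a a single array read STE2 near 0 (−0.24, −0.36 and −0.12) while STE3 was low on both arrays. In 13-5-c a single array read STE3 at 0.75 against −4.73 on its partner, and 23-3-d had no STE2 value. 10 other genes specific to either type, which the rule did not use, were nearer the MATa than the MATalpha mean for 6 of 10 genes in 7-5-d, 7 of 10 in 13-1-a, 6 of 10 in 17-1-a and 9 of 10 in 13-5-c. In 23-3-d they were so for 0 of 8 measured genes. Among the strains inside the groups, the lowest count in MATa was 5 of 10, in 9-3-d. The highest in MATalpha was 2 of 10, in 5-4-d and 9-6-d.

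The 3 segregants left out by name carried arrays that did not match each other. The 2 arrays of 22-5-d correlated across probes at r = 0.156 and those of 23-2-d at r = 0.155. Crosswise, the Cy5 array of 22-5-d and the Cy3 array of 23-2-d correlated at r = 0.798, and the remaining pair at r = 0.796. The arrays of 21-1-d correlated at r = 0.0804 and read LEU2 at −0.20 and −5.55. Probes are not independent replicates, and these correlations are descriptions.

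Among the 52 MATa and 53 MATalpha members, r between the 2 arrays of a strain lay between 0.371 and 0.899, with a median of 0.768 in MATa and 0.689 in MATalpha segregants. In some members both arrays correlated more with an array of another strain than with each other. In 2-5-d r was 0.39 between its arrays, and 0.637 and 0.587 with arrays of 3-1-d. In 10-4-d it was 0.371, and 0.571 and 0.554 with arrays of 15-4-d and 18-1-d. These members were kept. A strain had values for 5979 to 6731 of the 7085 probes. In 6 members, all MATa, the 2 arrays lay on opposite sides of the STE3 threshold. 1 of these, 21-3-d, also disagreed on STE2: its array with own RNA in Cy5 read −0.25 for STE2 and 0.57 for STE3, and its Cy3 array read 5.61 and −5.99. On that Cy5 array the mean of the other a-specific genes was 1.87 and that of the other alpha-specific genes −3.72. The number of arrays limits precision. Signal over background was not given, so the most negative ratios may sit at a floor of the strain's signal, and the most positive at a floor of the pool's. Of the a-specific genes, BAR1, MFA1 and MFA2 had a value in 2 of the 6 BY replicates. STE6 had one in 3, STE2 in 4, and AGA2 and ASG7 in all 6.

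The comparison asked which transcripts follow mating type among the progeny. Many of the genes that stood furthest apart were those that define the types: pheromones, agglutinins, the exporter of a-factor, the BAR1 protease and the MAT genes. Of 6557 tested probes, 137 (2.09%) differed at an adjusted p under 0.05 in limma with Benjamini-Hochberg adjustment. 86 of these (1.31%) were higher and 51 (0.778%) lower in MATa segregants. They stood for 127 named genes and 10 probes without a name. Strain names begin with 1 of 26 numbers, of which 19 hold strains of both types, and the labels do not say what the number marks. With that number as a block, added after seeing the data, limma called 34 probes higher and 30 lower, 62 of them among the 137. Of 37 called genes followed one by one, SNO1, SNZ1, ARO5, ALD5, HXK2, PHO87, RRP43 and AXL1 lost their call. The other called genes were not followed one by one under the block. The median absolute difference of the called probes was 0.45, against 0.04 over all tested probes, and 12 were higher and 14 lower in MATa by over 1 log2 unit. For 9 probes (0.137% of those tested) the strains of the types did not overlap. 7 of these had names, among them STE2 and STE3, whose separation the rule fixed, and the other five were BAR1, STE6, AFB1, MATALPHA1 and HMLALPHA1.

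All 6 a-specific genes apart from STE2 were higher in MATa segregants, with a median difference of 3.18, where the median over all tested probes was −0.01. BAR1, the secreted protease that degrades alpha-factor, had a lowest, median and highest value of 2.42, 4.76 and 7.16 in MATa strains, against −1.45, −0.25 and 0.69 in MATalpha strains. No MATa strain came down to the highest MATalpha strain, and the difference was 4.96 (SE 0.141, limma adjusted p = 2.1e-56). STE6, the transporter that exports a-factor, had 1.67, 2.85 and 4.83 in MATa strains, against −1.07, −0.23 and 0.79 in MATalpha strains. Here too the types did not overlap, and the difference was 3.08 (SE 0.0827).

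AGA2, the adhesion subunit of a-agglutinin, spread much further. It had 0.06, 3.65 and 6.51 in MATa strains, against −0.81, −0.15 and 0.70 in MATalpha strains, and 48 of the 52 MATa strains lay above the midpoint of the group means. The difference was 3.90 (SE 0.203). MFA2, a gene for the precursor of a-factor, had 0.25, 3.09 and 5.81 in MATa strains, against −1.81, −0.05 and 0.88 in MATalpha strains. Its groups overlapped in few strains, and the difference was 3.27 (SE 0.158).

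The other a-factor gene, MFA1, had 0.13, 1.44 and 4.62 in MATa strains, against −1.06, 0.02 and 4.13 in MATalpha strains, a difference of 1.51 (SE 0.195, limma adjusted p = 1.3e-09). The ranges overlapped widely, and 34 of 52 MATa strains lay above the midpoint. ASG7, which acts on the pheromone signalling pathway in zygotes, differed least of the a-specific genes, at 0.80 (SE 0.0934), with values from −1.03 to 2.43 in MATa strains and from −0.28 to 0.46 in MATalpha strains.

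**Figure D2:**
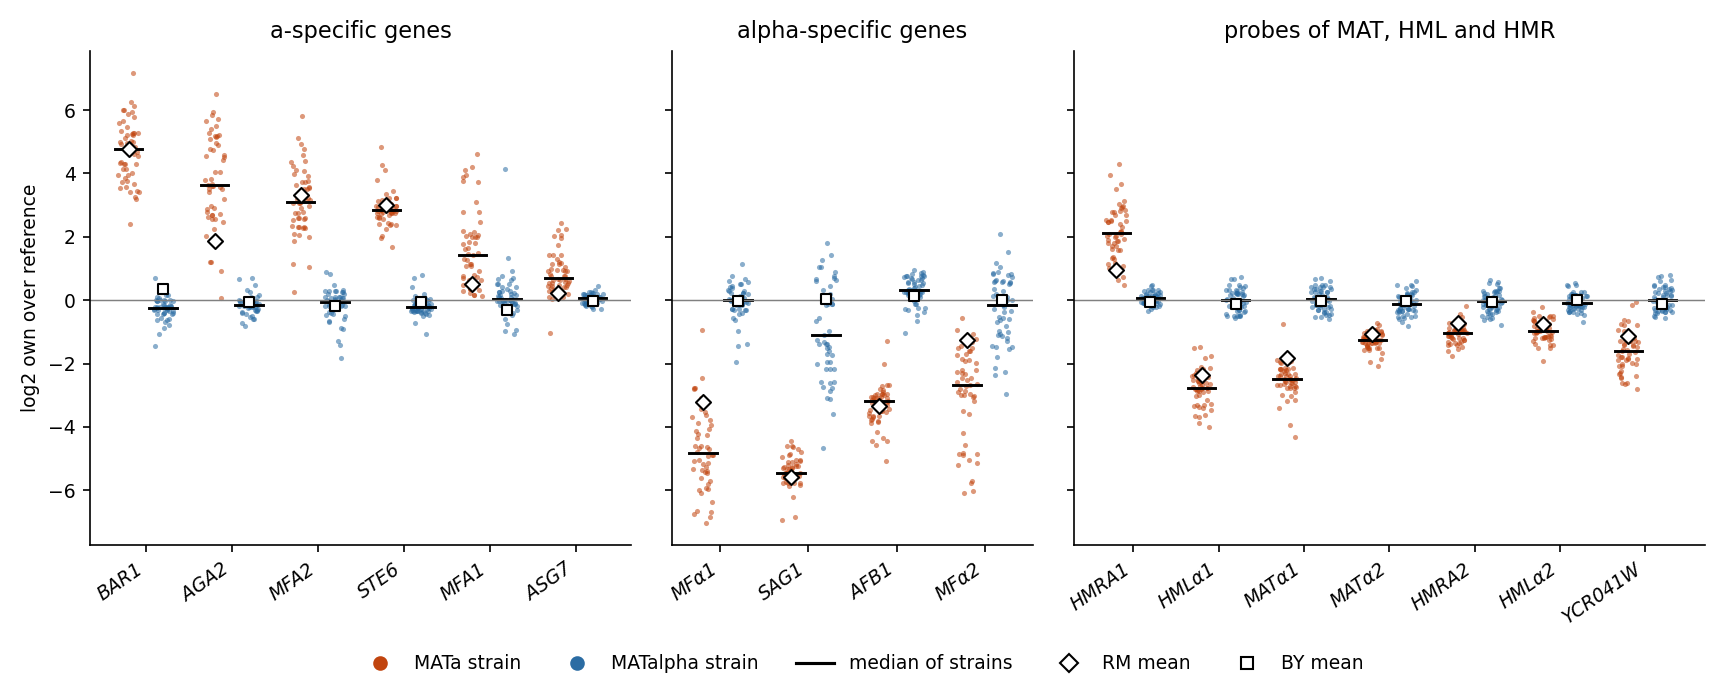
Log2 own over reference (y axis) for 17 probes, with 1 point per strain, MATa strains in orange to the left of MATalpha strains in blue, a bar at the median of each type, and the RM mean (diamond) and BY mean (square). The a-specific genes and HMRA1 lie higher in MATa strains and the others lower, and SAG1 and MFα2 spread widely among MATalpha strains.

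All 4 alpha-specific genes apart from STE3 were lower in MATa segregants, with a median difference of −4.05. MF(ALPHA)1, the main gene for alpha-factor, had a lowest, median and highest value of −7.03, −4.83 and −0.93 in MATa strains, against −1.96, 0.01 and 1.14 in MATalpha strains. The difference was −4.67 (SE 0.188, limma adjusted p = 4.4e-43), and the ranges met in few strains. AFB1, which encodes a barrier protein that acts against a-factor, had −5.07, −3.20 and −1.31 in MATa strains, against −1.04, 0.31 and 0.95 in MATalpha strains. Its groups did not overlap, with a difference of −3.64 (SE 0.102).

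SAG1, the alpha-agglutinin of the cell surface, was uniformly low in MATa strains and varied over a wide range in MATalpha strains. It had −6.94, −5.45 and −4.45 in MATa strains, against −4.68, −1.11 and 1.81 in MATalpha strains, a difference of −4.46 (SE 0.213). The SD was 0.477 among MATa and 1.49 among MATalpha strains. The MATa values may sit at a floor of the strain's signal, which would narrow their SD, and this was not tested. MF(ALPHA)2, the minor gene for alpha-factor, had −6.08, −2.67 and −0.57 in MATa strains, against −2.96, −0.15 and 2.08 in MATalpha strains. The types overlapped over much of their ranges, and the difference was −2.70 (SE 0.246).

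All 6 probes for the genes of MAT, HML and HMR differed, and each of these genes has a near-identical copy elsewhere on chromosome III, so that a probe may have read both. MATALPHA1, the activator of alpha-specific genes, had −4.31, −2.47 and −0.75 in MATa strains, against −0.59, 0.04 and 0.70 in MATalpha strains, a difference of −2.53 (SE 0.0867). The probe of its silent copy HMLALPHA1 gave −2.77 (SE 0.0896). MATALPHA2, the repressor of a-specific genes, differed by −1.15 (SE 0.0579), HMLALPHA2 by −0.90 and HMRA2 by −0.99. HMRA1, the silent copy of the a1 gene, was the one probe of these that was higher in MATa strains, with 0.47, 2.12 and 4.29 there against −0.34, 0.06 and 0.48 in MATalpha strains and a difference of 2.12 (SE 0.115). Of the 12 regulators listed, these 6 were called, 1 higher and 5 lower in MATa, and the rest were not called. MCM1, which works with the alpha proteins at the specific genes, differed by −0.002 (SE 0.0422, adjusted p = 0.988).

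The parents are set beside the segregants as a description, with no test. RM and MATa segregants had like means for BAR1 (4.78 ± 0.26 in 6 RM replicates, 4.69 ± 0.96 in MATa strains, SD), STE6 (3.00 ± 0.52 and 2.90 ± 0.53) and AFB1 (−3.33 ± 0.06 and −3.33 ± 0.62). For AGA2 the RM mean was 1.87 ± 0.48, against 3.77 ± 1.44 in MATa strains. For MFA1 it was 0.52 ± 0.31, against 1.64 ± 1.22, and for MF(ALPHA)2 it was −1.24 ± 0.24, against −2.97 ± 1.46. On the other side, SAG1 averaged −0.93 ± 1.49 in MATalpha strains and 0.05 ± 0.04 in 6 BY replicates, and the lowest MATalpha strain reached the range of the MATa strains.

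Over all tested probes 2.09% were called and 13.0% had an unadjusted p under 0.05. With few calls in each list, the counts of the lists that follow are a description and no result about these genes. None of 20 pheromone signalling genes was called by limma, with a median difference of 0.01, and 3 had an unadjusted p under 0.05. The nearest was FUS3, the kinase at the end of the cascade, at 0.23 (SE 0.0822, limma adjusted p = 0.147), followed by KSS1 at 0.17 (adjusted p = 0.177). Of 20 pheromone-induced genes only ASG7, itself a-specific, was called. The median difference was 0.11, and 6 of the 20 had an unadjusted p under 0.05. PRM5 stood at 0.50 (SE 0.166, adjusted p = 0.0952), KAR4, a regulator of karyogamy genes, at 0.34 (adjusted p = 0.177), and FUS1, needed for cell fusion, at 0.28 (SE 0.219, adjusted p = 0.653).

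Processing of the pheromones gave 1 call. AXL1, the protease that trims the a-factor precursor, was 0.15 higher in MATa (SE 0.0429, adjusted p = 0.0321), and the call was lost with own RNA in Cy3 alone, with grouping by STE3 alone, with the name number as a block (0.14, adjusted p = 0.314) and with LEU2 level as a covariate, where the difference was as large (0.16, SE 0.0517, adjusted p = 0.28). The other 6 genes of a-factor processing were not called, among them RCE1 at −0.12 (adjusted p = 0.0645). Of all 7, 3 had an unadjusted p under 0.05. Nor were the 3 genes of alpha-factor processing, KEX1, KEX2 and STE13, whose differences ran from −0.08 to −0.03 (1 at an unadjusted p under 0.05). None of 8 silencing genes was called in limma (2 at an unadjusted p under 0.05), with SIR2, the histone deacetylase of silent chromatin, at −0.13 (adjusted p = 0.133). Of 10 haploid-specific and switching genes, 1 was called higher (AXL1) and 1 lower (MATALPHA1) in MATa, both already given. In that list 3 had an unadjusted p under 0.05. HO, the switching endonuclease, was at 0.51 (SE 0.389, adjusted p = 0.629). Limma called no gene among 11 of daughter separation, of which 4 had an unadjusted p under 0.05. Nor did it among 18 of the stress response, 15 of the cytosolic ribosome and 30 of respiration, of which 0 had one.

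Within each type the specific genes varied from strain to strain, and in part together. 36 relations between these genes, LIF1 and FUS1 were computed within a type, with p-values from 100000 permutations and Benjamini-Hochberg adjustment over all 36. FUS1 was taken as a measure of basal pheromone response, and this set was chosen after the values were seen. No gene met the criterion for separate clusters (a gain in BIC of over 10 for 2 components, each holding at least 20% of strains), and the gain was 8.80 for FUS1 in MATa strains, with 40.1% in the smaller component, and 8.81 for MF(ALPHA)1 in MATalpha strains, with 7% in it. The points share their arrays and the reference pool. The labels give no batch. Values of r within the name numbers, after the mean of each number was removed, are given beside the pooled ones as a description.

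Among the 53 MATalpha strains all 15 relations passed, with r between 0.648 and 0.911. SAG1 rose and fell with MF(ALPHA)2 (r = 0.882, Spearman's rho 0.877, p = 1e-05 for both, the smallest that the permutations can give, adjusted p = 1.7e-05 and 1.8e-05), and r was 0.853 without the 2 strains furthest from the median of MF(ALPHA)2 and 0.860 within name numbers. SAG1 did so with FUS1 as well (r = 0.882, rho 0.909, 0.904 without the 2 furthest strains of SAG1, 0.859 within name numbers, same adjusted p). MATalpha strains low in alpha-agglutinin were thus low in alpha-factor transcripts and in FUS1.

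Among the 52 MATa strains 8 of 21 relations passed by Pearson's r and 11 by Spearman's rho. BAR1, AGA2 and ASG7 went with each other and with FUS1: r was 0.608 for BAR1 with AGA2 (rho 0.600, 0.580 without the 2 furthest strains, 0.406 within name numbers) and 0.760 for BAR1 with FUS1 (rho 0.786, 0.808 and 0.785), with adjusted p of 1.7e-05 for both r. The a-factor gene MFA2 did not pass with AGA2 (r = −0.024, rho −0.104, adjusted p = 0.87 and 0.51) or with BAR1 (r = −0.058, rho −0.123, adjusted p = 0.72 and 0.43). MFA2 passed with MFA1 (r = 0.432, rho 0.369, adjusted p = 0.0024 and 0.01), and r was 0.513 without the 2 furthest strains of MFA1 and 0.321 within name numbers. MFA1 with BAR1 did not pass (r = 0.065, rho 0.052, adjusted p = 0.71 and 0.74), but r was 0.485 within name numbers, and MFA1 with FUS1 had 0.253 pooled and 0.589 within them. STE6 passed with BAR1 (r = 0.317, rho 0.433, adjusted p = 0.035 and 0.0024), and r was 0.526 without the 2 furthest strains of STE6. By rho alone STE6 also passed with AGA2 (0.419, adjusted p = 0.003), ASG7 (0.402, adjusted p = 0.0051) and FUS1 (0.375, adjusted p = 0.0091), and without its 2 furthest strains r was 0.454, 0.302 and 0.452. The values for STE6 thus depend on 2 strains. Within name numbers r of STE6 with BAR1 was 0.312 and with AGA2 0.079. Whether relations differ between the types was not tested.

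**Figure D3:**
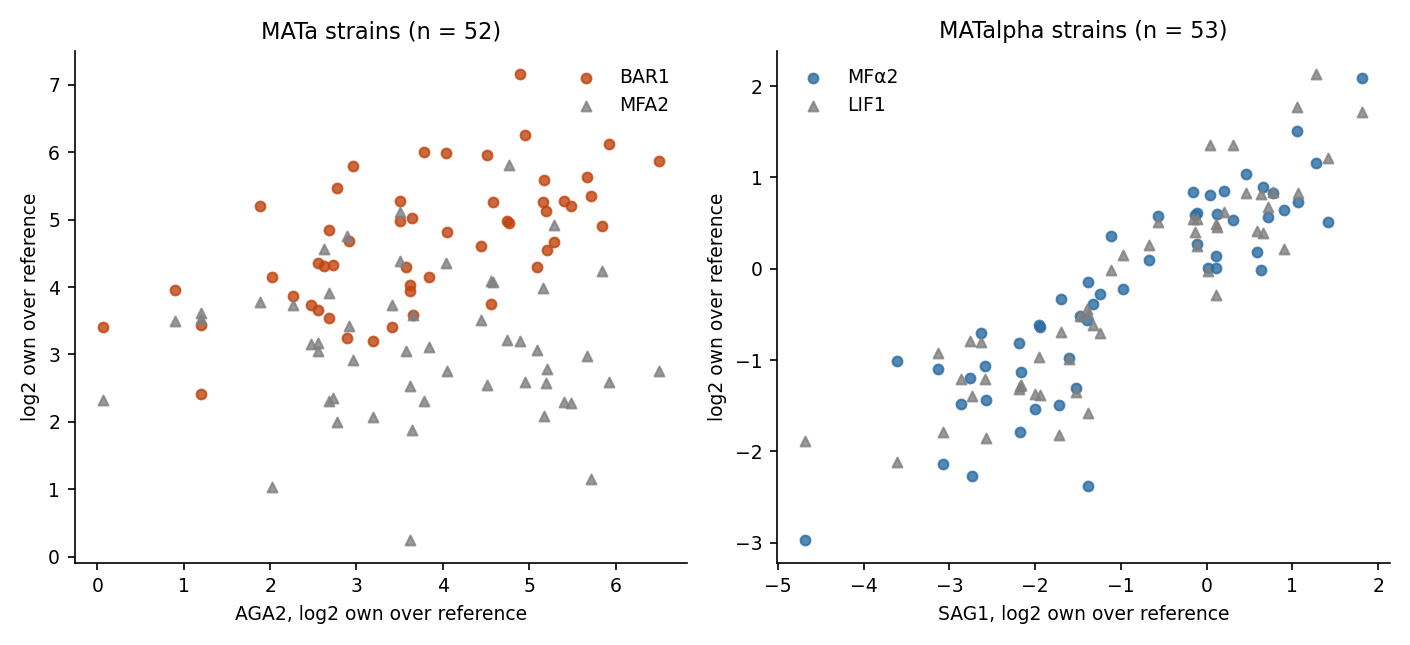
Left, AGA2 (x axis) against BAR1 and MFA2 (y axis) in the 52 MATa strains. Right, SAG1 against MFα2 and LIF1 in the 53 MATalpha strains, all as log2 own over reference. BAR1 climbs with AGA2 while MFA2 shows no trend, and both MFα2 and LIF1 climb with SAG1.

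Genes that lie next to specific genes were also called. These neighbours were chosen after the values were seen, by the gene order of the RefSeq assembly R64. Of 20 tested genes directly beside a specific gene, 8 (40%) were called, and of 19 genes the second place away 4 (21.1%), against 2.09% of all probes. These counts include the neighbours of STE2 and STE3, which chose the groups. LIF1, a partner of DNA ligase in end joining, lies beside MF(ALPHA)2 and was lower in MATa strains. It had −2.99, −2.19 and −1.12 in MATa strains, against −2.11, −0.28 and 2.13 in MATalpha strains, a difference of −1.95 (SE 0.155, limma adjusted p = 3.0e-20). Within MATalpha strains it went with MF(ALPHA)2 at r = 0.911 (rho 0.921, 0.908 without the 2 furthest strains, 0.910 within name numbers, adjusted p = 1.7e-05 for r).

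GYP8 and BST1 flank STE2, which chose the groups, and both were higher in MATa strains. If their probes also read STE2 transcripts, their calls followed from the rule. GYP8, a GTPase-activating protein of vesicle transport, had 0.13, 0.88 and 1.65 in MATa strains, against −0.75, −0.21 and 0.24 in MATalpha strains, a difference of 1.05 (SE 0.0601). BST1, which remodels GPI anchors, differed by 0.51 (SE 0.0282). HOP2, a meiotic recombination gene beside AGA2, was 0.50 higher (SE 0.0868), and TOH1 beside ASG7 was 0.40 higher (SE 0.0679). TFB3 beside MFA1 was 0.19 higher. 2 of the 8 had the opposite sign to the gene they adjoin: YNL146W beside MFA2 at −0.15 (SE 0.0389) and POS5 beside MF(ALPHA)1 at 0.24 (SE 0.067). With LEU2 level as a covariate 5 of the 8 remained called, and TFB3, YNL146W and POS5 did not. TFB3 then stood at 0.11 (adjusted p = 0.763), POS5 at 0.16 (adjusted p = 0.92) and YNL146W at −0.13, near its value without the covariate (adjusted p = 0.56). Whether these probes also read transcripts of the adjoining gene was not tested.

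Chromosome III, which carries MAT, had 15 of 154 probes of named genes called (9.74%), against 2.04% of 5490 on other chromosomes. Within 5 genes of MAT 7 of 11 were called (63.6%), which includes MATALPHA1 and MATALPHA2. In the bands of 6 to 20, 21 to 60 and over 60 genes from MAT the counts were 1 of 25 (4%), 3 of 64 (4.69%) and 4 of 54 (7.41%), and HML, HMR and LEU2 supplied 5 of the 7 calls of the last 2 bands. YCR041W, an open reading frame beside MATALPHA1, had −2.82, −1.59 and −0.07 in MATa strains, against −0.55, 0.01 and 0.80 in MATalpha strains, a difference of −1.63 (SE 0.0993, limma adjusted p = 1.9e-28). TAF2, a subunit of TFIID, differed by −0.20 (SE 0.033, adjusted p = 3.5e-06). On the other side of MAT, BUD5, the exchange factor of bud site choice, was 0.28 higher in MATa (SE 0.0573, adjusted p = 0.000485), while the phosphate transporter PHO87 was at −0.10 (SE 0.026, adjusted p = 0.024) and the exosome subunit RRP43 at −0.11 (SE 0.033, adjusted p = 0.0479). The call of RRP43 was lost under 9 of 17 other settings, with adjusted p up to 0.885, and that of PHO87 under 4 of 17, with adjusted p up to 0.145. RSC6, a subunit of a chromatin remodelling complex 12 genes from MAT, was at −0.24 (SE 0.048, adjusted p = 0.00026). Strains that share MAT also tend to share the parental alleles around it, and an effect of mating type and an effect of linked alleles cannot be told apart for these genes.

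**Figure D4:**
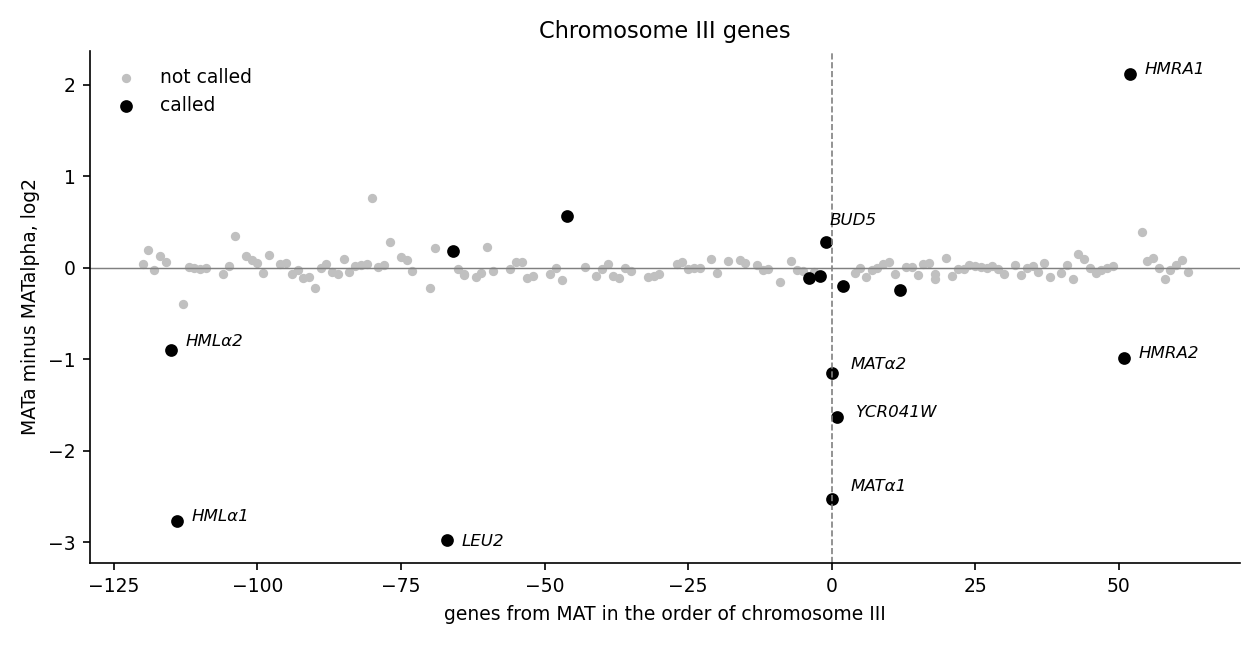
MATa minus MATalpha in log2 (y axis) for 154 probes of named genes of chromosome III, by the number of genes from MAT (x axis, dashed line at MAT). Black points were called, among them the 7 within 5 genes of MAT and the HML and HMR probes near the ends.

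LEU2, on the other arm of chromosome III, differed by −2.97 between the types (SE 0.432). Its lowest, median and highest values were −6.34, −5.06 and 0.58 in MATa strains, against −5.87, −0.05 and 0.95 in MATalpha strains. It lay nearer the RM mean in 41 of 52 MATa strains (78.8%, exact binomial 95% interval 65.3 to 88.9%) and in 13 of 53 MATalpha strains (24.5%, 13.8 to 38.3%), intervals that cover counting error only. The strains that combined the types otherwise than the parents were 11 MATa strains with LEU2 nearer BY and 13 MATalpha strains with LEU2 nearer RM. The leucine and branched-chain genes also differed between the types. Of the 16 listed apart from LEU2, 9 were higher and 0 lower in MATa, where 1.31% and 0.778% of all probes were, and their median difference was 0.53.

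LEU1, isopropylmalate isomerase of leucine synthesis, had −0.82, 2.82 and 4.81 in MATa strains, against −0.95, 0.29 and 4.15 in MATalpha strains, a difference of 1.86 (SE 0.272, limma adjusted p = 1.1e-07). OAC1, a mitochondrial carrier, differed by 1.24 (SE 0.209), BAT1, a branched-chain aminotransferase, by 1.05 (SE 0.176), and the aldehyde dehydrogenase ALD5 by 0.81 (SE 0.17). The types overlapped over nearly their whole ranges. With LEU2 level as a covariate limma called none of these 16 and their median difference was 0.08. LEU2, the covariate itself, has no difference left in that fit by construction. LEU1 then stood at 0.44 (SE 0.22, adjusted p = 0.92) and BAT1 at 0.17 (adjusted p = 0.963).

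The covariate reduced the calls over all probes to 46 of 6557 (0.702%), 21 higher (0.32%) and 25 lower (0.381%) in MATa. All 46 had been called without it, and 91 calls were lost, 65 higher and 26 lower. The median absolute difference of the lost calls was 0.38 without and 0.15 with the covariate, and that of the kept calls 0.95 and 0.90. The standard error was 1.20 times as large in the median over all probes. Among the lost calls were SNO1 and SNZ1, a pair of neighbouring genes of vitamin B6 metabolism (0.99, SE 0.262, and 0.95, SE 0.237, without the covariate), ARO5 (0.93, SE 0.22), the hexokinase HXK2 (−0.42, SE 0.121) and CTI6 (0.27, SE 0.0461). All 10 specific genes other than STE2 and STE3 and the 6 MAT, HML and HMR probes remained called. Their largest shift under the covariate was that of MF(ALPHA)2, to −2.40.

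**Figure D5:**
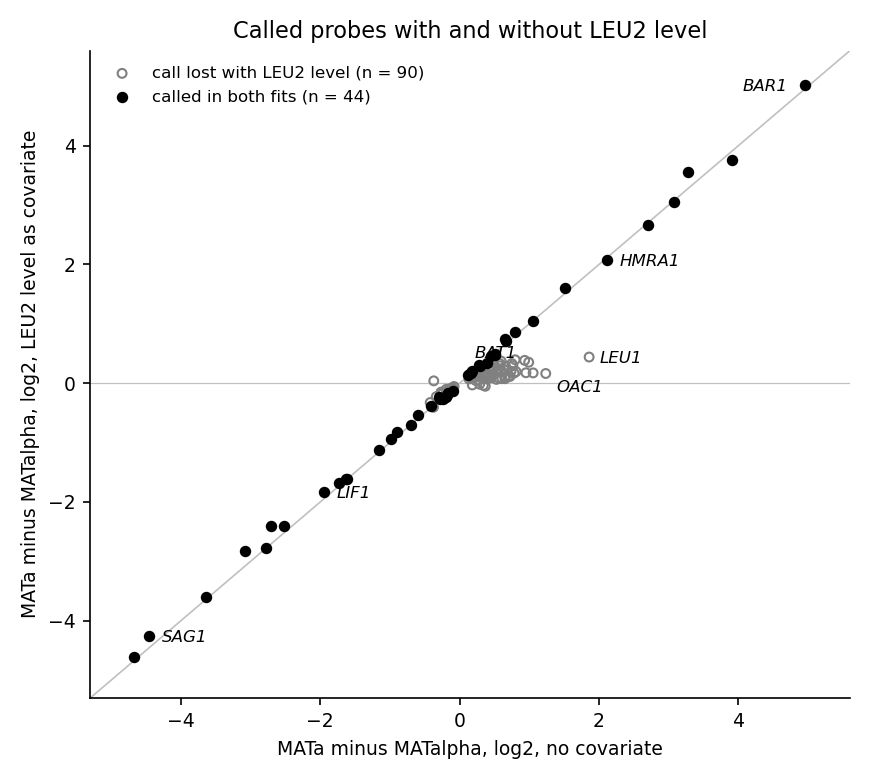
MATa minus MATalpha in log2 without a covariate (x axis) and with LEU2 level as covariate (y axis) for the called probes other than STE2, STE3 and LEU2. The 44 black points, called in both fits, lie along the diagonal. The 90 grey circles lost their call. Many of them lie nearer 0 with the covariate, LEU1 and OAC1 among them, while others, such as AXL1 and YNL146W, stay near the diagonal.

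20 named genes outside the specific and regulator lists remained called with the covariate. 5 lay on chromosome III near MAT and 8 within 2 genes of a specific gene. The other 7, named after their values were seen, had no such place. STB5, a transcription factor of the pentose phosphate pathway, averaged 0.86 ± 0.52 in MATa strains and 0.21 ± 0.23 in MATalpha strains (SD), a difference of 0.65 (SE 0.0773, limma adjusted p = 4.8e-11). LAG2, a regulator of a ubiquitin ligase, averaged 0.64 ± 0.54 and −0.02 ± 0.19, a difference of 0.66 (SE 0.0781). MEC3, a subunit of the DNA damage checkpoint clamp, averaged 0.38 ± 0.33 and −0.06 ± 0.18, a difference of 0.45 (SE 0.0513).

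4 of the 7 were lower in MATa strains. PTC5, a mitochondrial protein phosphatase, averaged −0.46 ± 0.24 in MATa strains and −0.06 ± 0.16 in MATalpha strains, a difference of −0.41 (SE 0.04). YRR1, a transcription factor of drug resistance, differed by −0.60 (SE 0.101), SEN54, a subunit of the tRNA splicing endonuclease, by −0.28 (SE 0.0478), and YSR3, a phosphatase of sphingolipid bases, by −0.19 (SE 0.0423). In these 7 genes the ranges of the types overlapped, so that none of them would sort single strains. The 10 called probes without a gene name ran from −3.08 to 2.71, and 2 of them had types that did not overlap.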

How the data were processed

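The authors deposited log2 ratios of 262 hybridisations of 7085 probes, with every array centred (largest absolute array mean 1.16e-08). For the scanner, background, spot filter, genome build and date, details were not given in the sources used here, and the direction and base of the ratio were taken from the values. The sign was turned to own RNA over reference, and a strain's 2 arrays were averaged (1 where the other was missing). Probe genes came from the platform annotation: 5645 probes had 1 symbol and 1440 none; all symbols were found in the RefSeq table of R64.

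MATa and MATalpha were compared with limma 3.58.1 (lmFit, eBayes) in R 4.3.3, for probes with a value in at least 50% of strains of each type, with Benjamini-Hochberg adjustment over 6557 probes and a threshold of 0.05. Repeat fits added LEU2 level or, chosen after seeing the data, the leading number of the strain name. At an unadjusted p under 0.05, 853 probes passed. On simulated data of that comparison and 6557 probes, 200 of them changed, 86% of differences of 0.25 and 96% of 0.5 were recovered. There 6.83% of calls were unchanged probes. The simulated probes varied independently, with normal noise and the same SD in both types. The measured probes do not, so these shares are not error rates of the calls above. Python 3.11.15 with pandas 2.3.3, numpy 2.4.6, scipy 1.17.1 and matplotlib 3.10.9 was also used.

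The members, the 14 gene lists and the rule for named genes were chosen with earlier results of these data known. Named genes are the specific genes, the 15 highest and 15 lowest called genes, called genes within 20 genes of MAT (up to 10), LEU2, up to 4 of lowest adjusted p per other list, and 5 calls lost with LEU2; other genes are named in the text as chosen later. Nothing states that segregants are separate cultures, so p-values measure the spread between these samples. RM repeat runs were averaged to 6 replicates.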

Additional observations from a re-analysis of the deposited data

Results flagged for a closer look

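STE3 in the RM replicates had 1 sample far from the others. The RM replicate labelled 6 had a STE3 value of −3.20, where the mean of the 6 RM replicates was −5.80 ± 1.32 (SD). It was 1 of 20 groups of BY or RM replicates examined in this way, and chance flags about 1 group in 20. RM values are shown only beside those of the segregants, and no test rests on this one.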

How the results depend on the processing

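17 other settings were run, and 3 of them were chosen after seeing the data. These left out 21-3-d, left out 6 strains whose arrays disagree on STE3, or took the leading number of the strain name as a block. None of the 37 called genes picked by the rule for named genes changed sign across the settings. Genes named later in the text, such as STB5, LAG2, MEC3 and BST1, were followed with LEU2 level as a covariate only. Lost calls given below are among the 37. Counts of probes higher and lower in MATa moved by over 1.5 times under 3 settings. With LEU2 level as a covariate they were 21 and 25, where the standard error was also larger. With the name number as a block they were 34 and 30. With grouping by STE2 alone, which adds 7-5-d, 13-1-a and 17-1-a to MATalpha and 13-5-c to MATa, they were 52 and 33 (the cause was not tested), and the calls of SNO1, SNZ1, ARO5, HXK2, PHO87 and RRP43 were lost. Under the other 14 settings the counts lay between 76 and 114 higher and between 43 and 72 lower. Without the 6 strains they were 100 and 52, and without 21-3-d 95 and 53. HXK2 or RRP43, whose adjusted p lay near the threshold, was also lost under 7 of these, PHO87 under 2 and AXL1 under 2. Signal over background was not given, so the sizes of the most negative and of the most positive ratios are uncertain. Leaving out each strain in turn was not run, with over 50 strains of each type. No paired analysis was possible because the segregants carry no replicate number in the labels and the parents were not compared. The name number stood as a block instead, though the labels do not say what it marks.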
